A study of Mus musculus with 16 samples.

Results

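Carbonic anhydrases are zinc enzymes that interconvert carbon dioxide and water with bicarbonate and a proton. In the colon they feed the apical exchangers of chloride for bicarbonate and of sodium for protons, through which surface epithelium absorbs salt and sets the pH of the mucus and the lumen. Mammals spread the reaction over cytosolic enzymes, enzymes anchored in the outer membrane and mitochondrial enzymes, and also keep relatives that have lost catalytic activity.

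The 7 carbonic anhydrase genes described here were taken by symbol from the array's annotation, with the brightest probe set for each gene, out of 18850 genes in all. They are the cytosolic Car1, Car2 and Car13, the membrane-anchored Car4, the transmembrane Car9 and Car12, and the acatalytic Car8, and each had 1 probe set. Gene expression was measured in mouse colon organoids, cultured spheres of colon epithelium, grown in the growth-factor medium ENR, with 4 arrays in each of 4 groups. The groups were mutant organoids given tumour necrosis factor alpha (TNFa, an inflammatory cytokine) at 50 ng/ml for 12 h, mutant organoids without it, wild-type (WT) organoids given the same TNFa, and WT organoids without it. The mutants carry altered alleles of Atf2 and Atf7, related stress-responsive transcription factors, titled "ATF2/7 fl" with the genotype "ATF2 fl/fl / ATF7 KO". Their descriptions swap which gene was knocked out and which floxed, and give no Cre, recombination, strain, age or animal. The TNFa protocol stands on every sample, and only samples titled with TNFa were taken as treated. No label says that the numbered samples are separate animals or cultures, so p-values measure the spread between these arrays, which may be technical.

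Signals are log2 values, in which 1 unit is a 2-fold difference. A gene was tested if at least 4 of 16 arrays had its signal above their own 40th percentile, a level of 6.40 to 6.56. This kept 11766 genes and 6 of the 7 carbonic anhydrases. Car12 exceeded it on 2 arrays, both of mutant organoids with TNFa. Changes were called at a Benjamini-Hochberg adjusted p under 0.05 over all genes tested, from limma. The Atf2 signal did not differ detectably between mutant and WT organoids, by -0.06 with TNFa (adjusted p = 0.729, limma) and by -0.02 without it (adjusted p = 0.942, limma), and Atf7 was not analysed here. All 10 colon epithelium markers on the array were tested, and their mean on an array lay between 11.1 and 11.3 in every group. That mean does not show single markers, of which Cdx2, the dimmest, averaged 8.42 in mutant organoids with TNFa and 8.46 in mutant organoids. It averaged 8.83 in WT organoids with TNFa and 8.99 in WT organoids. Of markers of red cells, another source of Car1 and Car2, Alas2 was dim and Slc4a1 averaged between 8.28 and 8.50 in the 4 groups. None of the 3 endothelial markers passed the filter, nor did 5 of the 7 fibroblast and smooth muscle markers. The 2 that passed were Col1a1, averaging between 8.07 and 8.19 in the 4 groups, and Myh11, between 6.65 and 6.74. Of 4 immune markers Lyz2, which epithelium can also express, passed, at 8.83 in mutant organoids with TNFa, 8.45 in mutant organoids, 7.58 in WT organoids with TNFa and 8.32 in WT organoids. The part of other cells in the results was not tested. The second array of WT organoids with TNFa stood apart, with a mean correlation of 0.977 to the other arrays of its group, against 0.986 to 0.995 for every other array.

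**Figure D1:**
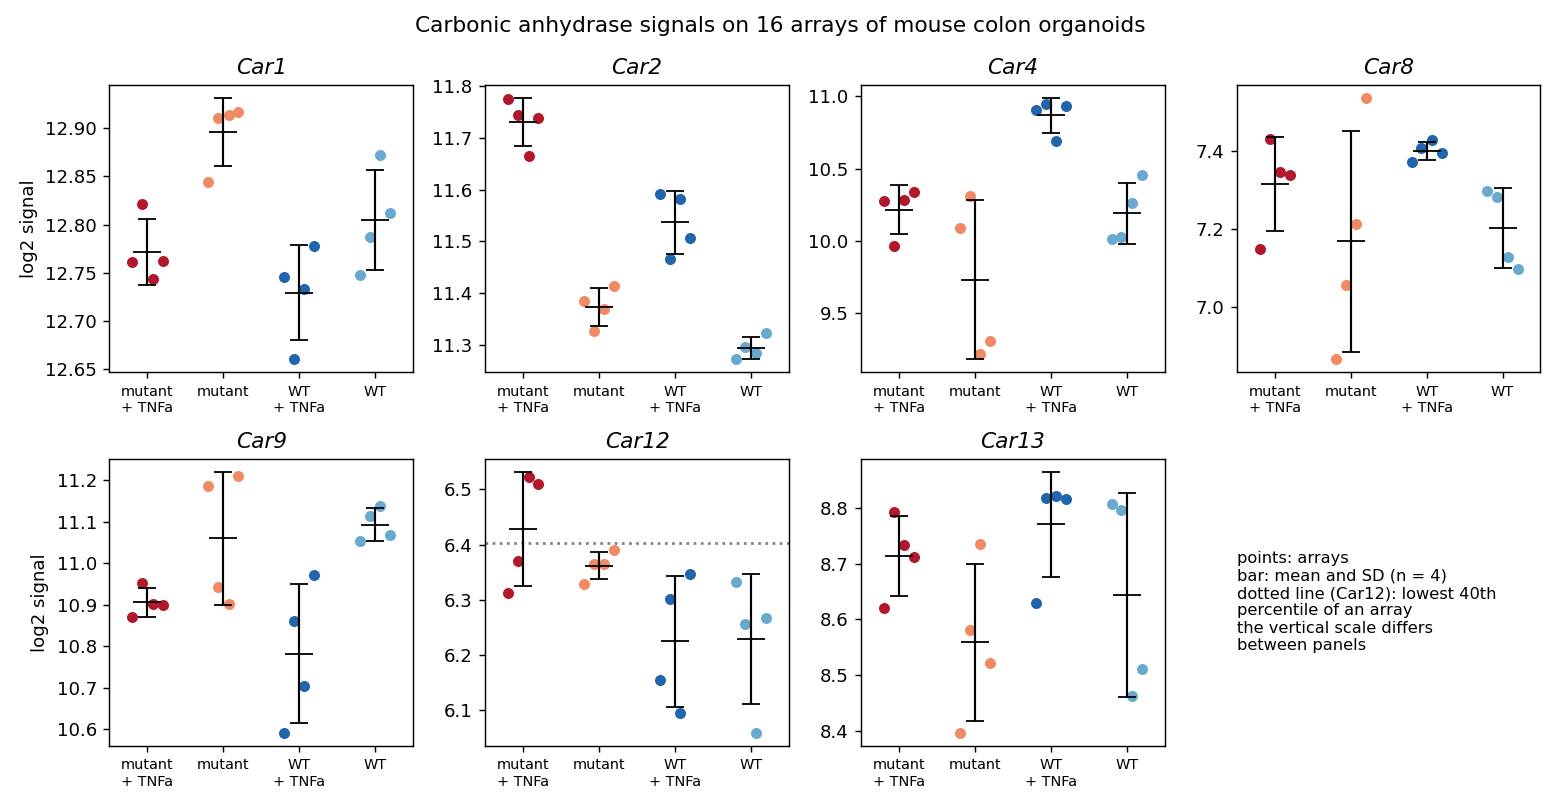
Log2 signal (y axis) of each of the 7 carbonic anhydrases on every array, as points, by group (x axis), with bars for the mean and SD (n = 4) and a vertical scale of its own in each panel. Car2 sits higher with TNFa in both genotypes, Car4 is highest in WT organoids with TNFa, and Car12 lies near 6.3 in all groups.

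TNFa raised Car2 in both genotypes. In WT organoids it also raised Car4 and lowered Car9, by calls that some alternatives, given with each gene, did not keep. In mutant organoids with TNFa, Car2 was higher than in WT organoids with TNFa, a call kept under only 10 of 27 alternatives. No difference between the TNFa effects of the genotypes was called for any of the 6 genes, and 0.0085% of all tested genes had one. Under TNFa, 1 of 6 carbonic anhydrases rose in mutant organoids and 0 fell, where 5.98% of all tested genes were called, 3.51% higher and 2.47% lower. In WT organoids 2 of 6 rose and 1 fell, where 10.8% of all tested genes were called, 5.03% higher and 5.75% lower. With TNFa, 1 of 6 was higher in mutant than in WT organoids and 0 lower, where 2.69% of all genes were called, 1.56% higher and 1.13% lower. Without TNFa 0 of 6 were called, where 2.48% of all genes were, 1% higher and 1.48% lower. With so few members these counts say little beyond the genes themselves. TNFa and untreated arrays did not overlap for 2 of 6 members in mutant organoids, where this held for 13.9% of all tested genes, and for 4 of 6 in WT organoids, where it held for 14.2%. Mutant and WT arrays did not overlap for 2 of 6 with TNFa (8.89% of all genes) and for 1 of 6 without it (9.34% of all genes). Each TNFa effect shares arrays with each genotype effect, so their values are set side by side and not correlated. The median change over the 6 genes was 0.15 under TNFa in mutant organoids and 0.16 in WT organoids, beside 0.01 over all tested genes in each. It was -0.01 between mutant and WT organoids with TNFa and -0.03 without it.

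**Figure D2:**
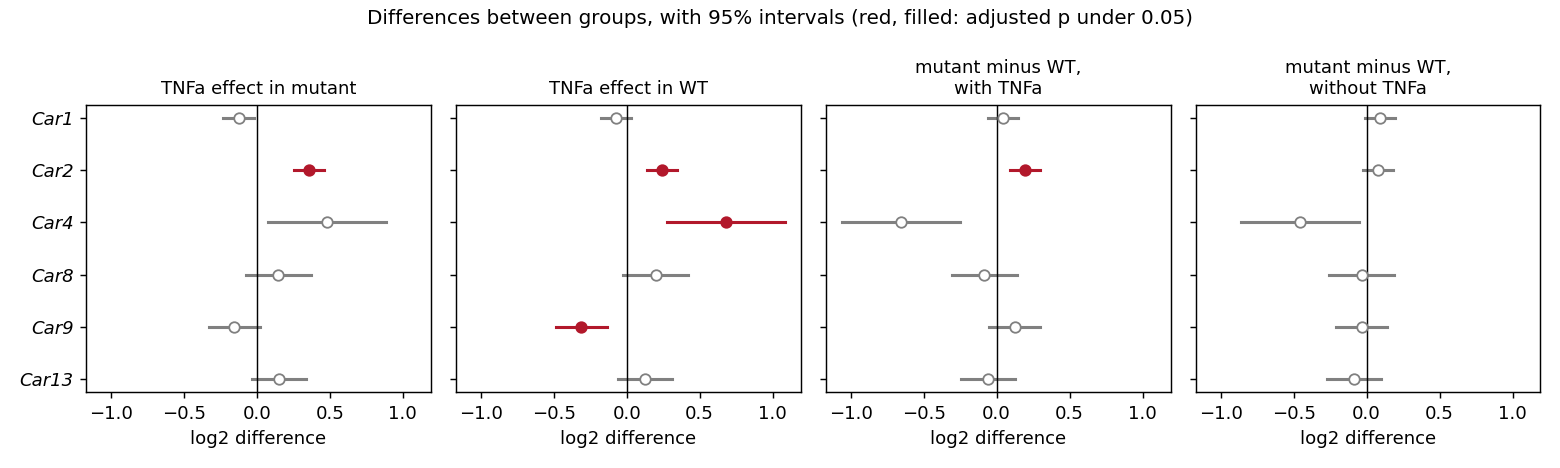
Log2 change (x axis) of the 6 tested carbonic anhydrases (y axis) with its 95% interval, for the TNFa effect in mutant and in WT organoids and for the mutant minus WT difference with and without TNFa. Filled points were called at an adjusted p under 0.05, and Car2 under TNFa stands clear of 0 in both genotypes.

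Car2 is the fast cytosolic enzyme. Its log2 signal was 11.78, 11.74, 11.67 and 11.74 in mutant organoids with TNFa, and 11.39, 11.33, 11.37 and 11.41 in mutant organoids. It was 11.59, 11.47, 11.58 and 11.51 in WT organoids with TNFa, and 11.27, 11.30, 11.29 and 11.32 in WT organoids. Within each genotype every TNFa array was above every untreated array, and with TNFa every mutant array was above every WT array. TNFa raised Car2 by 0.36 ± 0.05 (SE, 95% interval 0.25 to 0.46, 1.28-fold) in mutant organoids, with an adjusted p of 1.34e-04 from limma. In WT organoids the rise was 0.24 ± 0.05 (0.14 to 0.35, 1.18-fold), with an adjusted p of 0.00323 from limma. These rises were called under all 28 alternatives tried. Between genotypes with TNFa the difference was 0.19 ± 0.05 (0.09 to 0.30, 1.14-fold; adjusted p = 0.0433, limma). Leaving out any of 13 arrays ended that call, with adjusted p between 0.0506 and 0.142 from limma. With TNFa these were WT 2, 3 and 4 and mutant 1, 2 and 4. Untreated, they were WT 1, 2, 3 and 4 and mutant 2, 3 and 4. Without any 1 of these untreated arrays the difference stayed at 0.19. The call was also lost with no filter (adjusted p = 0.112), with median centring (0.0782) and with only the 2 groups fitted (0.180), all from limma. Without TNFa the mutant arrays were again all above the WT arrays, but the difference of 0.08 (-0.02 to 0.18) was not called, with an adjusted p of 0.537 from limma. The TNFa effect in mutant organoids exceeded that in WT organoids by 0.11 (-0.03 to 0.26; adjusted p = 0.785, limma), which is not a detected difference. In a bulk sample, a change in the number of cells of a type and a change in RNA per cell cannot be told apart.

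Car1 is the low-activity cytosolic enzyme typical of colon epithelium. It ranked between 1 and 9 of 19825 probe sets on every array. Its signal was 12.76, 12.82, 12.74 and 12.76 in mutant organoids with TNFa, and 12.84, 12.91, 12.91 and 12.92 in mutant organoids. It was 12.75, 12.66, 12.73 and 12.78 in WT organoids with TNFa, and 12.75, 12.79, 12.87 and 12.81 in WT organoids. The mutant groups did not overlap, while the WT groups did. The difference under TNFa was -0.12 (-0.23 to -0.02; adjusted p = 0.194, limma) in mutant organoids and -0.08 (-0.18 to 0.03; adjusted p = 0.391, limma) in WT organoids, and neither was called. A variance trend with robust fitting called it in mutant organoids, at an adjusted p of 0.00957 from limma.

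Car13 is a further cytosolic enzyme, and its gene lies beside Car1, Car3 and Car2 on chromosome 3 (GRCm38.p6 gene order). Its signal averaged 8.71 ± 0.07 in mutant organoids with TNFa and 8.56 ± 0.14 in mutant organoids (SD, n = 4 each). It averaged 8.77 ± 0.09 in WT organoids with TNFa and 8.64 ± 0.18 in WT organoids (SD, n = 4 each). All 4 groups overlapped, and no comparison was called, with TNFa differences of 0.16 in mutant and 0.13 in WT organoids. Car3, the muscle enzyme between Car1 and Car2, was above the percentile on 0 arrays. Car1 lay within 0.27 of the brightest probe set on every array, and signal there may be compressed, so its lack of a call is not set against the call of its neighbour Car2.

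Car4 is held on the outer face of the apical membrane by a lipid anchor, beside the bicarbonate exchangers. Its signal was 10.27, 9.96, 10.28 and 10.34 in mutant organoids with TNFa, and 10.09, 10.31, 9.22 and 9.31 in mutant organoids. It was 10.90, 10.95, 10.69 and 10.93 in WT organoids with TNFa, and 10.01, 10.02, 10.26 and 10.46 in WT organoids. All WT arrays with TNFa lay above every other array, and mutant arrays 3 and 4 lay about 1 unit under mutant arrays 1 and 2. TNFa raised Car4 in WT organoids by 0.68 ± 0.19 (0.28 to 1.08, 1.60-fold; adjusted p = 0.0297, limma). The call was lost on leaving out WT 1, 2 or 3 or WT with TNFa 1, 2 or 4, where the rise was 0.62 to 0.70 and the adjusted p 0.0523 to 0.0841. It was also lost with no filter on dim genes (adjusted p = 0.0512, limma) and with array weights, where the rise was 0.61 (adjusted p = 0.0521, limma). In mutant organoids the difference was 0.48 ± 0.19 (0.08 to 0.89; adjusted p = 0.197, limma) and the groups overlapped. Without mutant 2 it was 0.68 and was called (adjusted p = 0.0294, limma). Mutant organoids with TNFa were all lower than WT organoids with TNFa, by -0.65 ± 0.19 (-1.06 to -0.25; adjusted p = 0.0887, limma), which was not called. Leaving out mutant 2 or mutant 3 brought the call, at adjusted p 0.0373 and 0.0464 from limma, and so did fitting the 2 groups alone, at 0.00633. The difference stayed at -0.65 in each of these, since the untreated arrays are outside it. Without TNFa the mutant minus WT difference was -0.46 (-0.86 to -0.05; adjusted p = 0.294, limma) with overlapping groups. The interaction was -0.20 (-0.77 to 0.37; adjusted p = 0.908, limma). 

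The 250 bases before the Car4 start (RefSeq, GRCm38.p6, chr11:84957504-84957753, plus strand) are shown because TNFa works through NF-kB. Capitals mark the only match on either strand to the kappaB motif, 159 to 150 bases before the start.
Car4: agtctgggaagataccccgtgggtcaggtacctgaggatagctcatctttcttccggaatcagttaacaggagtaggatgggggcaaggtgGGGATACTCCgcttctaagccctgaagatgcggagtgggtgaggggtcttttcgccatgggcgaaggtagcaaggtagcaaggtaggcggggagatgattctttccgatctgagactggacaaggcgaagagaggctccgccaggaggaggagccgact
A kappaB match was present in 3.90% of 32851 promoter windows of this length. None of the other motifs searched, given with Car9, was found there. A match is a run of letters, not a bound site.

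Car9 is a transmembrane enzyme with its active site outside the cell, best known as a target of the hypoxia-inducible factors. Its signal was 10.87, 10.95, 10.90 and 10.90 in mutant organoids with TNFa, and 11.19, 10.94, 10.90 and 11.21 in mutant organoids. It was 10.59, 10.86, 10.70 and 10.97 in WT organoids with TNFa, and 11.05, 11.11, 11.14 and 11.07 in WT organoids. The WT groups did not overlap, while the mutant groups did. TNFa lowered Car9 in WT organoids, by -0.31 ± 0.08 (-0.48 to -0.14, a 1.24-fold fall), with an adjusted p of 0.0209 from limma. The call was lost without WT 2 (adjusted p = 0.0514), WT 3 (0.0564), WT with TNFa 1 (0.0704) or WT with TNFa 3 (0.0657), all from limma, with changes of -0.25 to -0.30. It was also lost when only the WT groups were fitted (adjusted p = 0.0615, limma). In mutant organoids the difference was -0.15 (-0.33 to 0.02; adjusted p = 0.406, limma). The difference between these TNFa effects was 0.16 (-0.09 to 0.40; adjusted p = 0.828, limma), so they were not shown to differ. Between mutant and WT organoids Car9 differed by 0.12 with TNFa and -0.03 without it, and neither was called.

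The 250 bases before the Car9 start (RefSeq, GRCm38.p6, chr4:43506776-43507025, plus strand) are shown for the hypoxia response. Capitals mark the hypoxia core ACGTG, read on the minus strand 18 to 14 bases before the start, and the AP-1 motif TGANTCA 77 to 71 bases before it, a palindrome that reads on both strands.
Car9: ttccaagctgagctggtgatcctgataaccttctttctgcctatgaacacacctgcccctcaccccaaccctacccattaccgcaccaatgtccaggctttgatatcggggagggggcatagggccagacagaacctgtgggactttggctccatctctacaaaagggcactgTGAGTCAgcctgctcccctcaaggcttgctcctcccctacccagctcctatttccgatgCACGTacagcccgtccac
The hypoxia core, searched on both strands as ACGTG or GCGTG, was present in 38.6% of the 32851 windows, and the AP-1 motif in 6.75%. The CRE motif TGACGTCA, present in 1.55% of windows, was not in the Car9 or Car4 window. Of the 7 genes, 3 had a promoter in the table, and the Car12 window held none of these motifs. That window (chr9:66713436-66713685) lies inside the annotated gene, which begins at 66712296, and not before its first base.

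Car12, the other transmembrane enzyme, was dim. Its signal averaged 6.43 ± 0.10 in mutant organoids with TNFa, 6.36 ± 0.03 in mutant organoids, 6.23 ± 0.12 in WT organoids with TNFa and 6.23 ± 0.12 in WT organoids (SD, n = 4 each). Tested without the filter, its largest difference was 0.20 (0.04 to 0.36) between mutant and WT organoids with TNFa (adjusted p = 0.299, limma). Near the array's lower range a fold change is approximate.

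Car8 lacks catalytic activity and binds the inositol trisphosphate receptor in neurons. Its signal was 7.15, 7.43, 7.35 and 7.34 in mutant organoids with TNFa, and 6.87, 7.06, 7.21 and 7.54 in mutant organoids. It was 7.37, 7.41, 7.43 and 7.39 in WT organoids with TNFa, and 7.30, 7.28, 7.13 and 7.10 in WT organoids. The WT groups did not overlap, and mutant organoids without TNFa spread the most. The TNFa differences of 0.20 (-0.02 to 0.42; adjusted p = 0.276, limma) in WT and 0.15 (-0.08 to 0.37; adjusted p = 0.593, limma) in mutant organoids were not called. Of the other carbonic anhydrases, the mitochondrial Car5a and Car5b, the acatalytic Car10 and the membrane-anchored Car15 passed the filter and none was called in any comparison. The nearest was Car15, at 7.02 ± 0.06 in mutant and 6.75 ± 0.10 in WT organoids (SD, n = 4 each), a difference of 0.27 with an adjusted p of 0.0550 from limma. Car6, Car7, Car11 and Car14 were dim on every array.

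Carbonic anhydrases supply ions to transporters, so 2 transporter lists were set beside them (Slc4a1, a red cell marker above, is in the first). Of 13 tested genes for bicarbonate and chloride transport, 2 rose and 0 fell under TNFa in mutant organoids, where 3.51% of all tested genes rose and 2.47% fell. In WT organoids 3 rose and 1 fell, where 5.03% of all tested genes rose and 5.75% fell. None was called between genotypes, where 2.69% of all tested genes were with TNFa and 2.48% without it. Their median was 0.09 in mutant and -0.01 in WT organoids under TNFa, beside 0.01 over all genes. Slc12a2, the basolateral cotransporter that loads chloride for secretion, rose by 0.64 in mutant (adjusted p = 1.32e-05, limma) and 0.71 in WT organoids (adjusted p = 3.34e-06, limma). Cftr, the apical chloride and bicarbonate channel, rose by 0.52 in mutant (adjusted p = 0.00814, limma) and 0.46 in WT organoids (adjusted p = 0.0126, limma). Its WT call was kept under 26 of 27 alternatives. In WT organoids Slc26a2, a sulfate exchanger, fell by 0.37. Ano1, a calcium-activated chloride channel, rose there by 0.51 (adjusted p = 0.0274, limma), and lost its call without WT 3, WT 4, WT with TNFa 3 or WT with TNFa 4, at adjusted p up to 0.0864. Slc26a3, the apical exchanger that works beside Car4, was not called in any comparison.

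Of 12 tested genes for proton and short-chain fatty acid transport, 2 rose and 1 fell under TNFa in mutant organoids, where 3.51% of all tested genes rose and 2.47% fell. In WT organoids 2 rose and 3 fell, where 5.03% of all tested genes rose and 5.75% fell. The list's median was -0.05 in mutant and -0.09 in WT organoids, beside 0.01 over all genes. Between mutant and WT organoids, 0 were higher and 2 lower with TNFa, and 0 higher and 3 lower without it, where 1.13% and 1.48% of all genes were lower. The list's median was 0.02 with TNFa and -0.04 without it. Slc9a3, the apical sodium-proton exchanger NHE3 that absorbs salt together with Slc26a3, had 9.64, 9.47, 9.74 and 9.75 in mutant organoids with TNFa and 9.08, 9.20, 8.72 and 8.35 in mutant organoids. It had 10.57, 10.93, 10.45 and 10.75 in WT organoids with TNFa and 10.02, 9.94, 10.19 and 9.99 in WT organoids. None of the 4 compared pairs of groups overlapped. Mutant organoids were lower than WT by -1.02 with TNFa (adjusted p = 6.46e-04, limma) and by -1.20 without it (adjusted p = 1.06e-04, limma). TNFa raised Slc9a3 by 0.81 in mutant (adjusted p = 0.00176, limma) and 0.64 in WT organoids (adjusted p = 0.00769, limma). Slc9a2, a second such exchanger, was lower in mutant organoids by -0.68 with TNFa and -0.71 without it. Slc9a4 rose under TNFa by 1.41 in mutant and 1.16 in WT organoids. Slc16a1, which carries short-chain fatty acids with protons, fell by 0.38 in mutant and 0.28 in WT organoids. Its WT call was kept under 27 of 28 alternatives. Slc5a8, their sodium-coupled carrier, fell by 0.64 under TNFa in WT organoids and was lower in mutant than in WT organoids without TNFa, by -0.62. Slc9a3r2, a scaffold of NHE3, fell by 0.39 in WT organoids, at a dim signal.

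**Figure D3:**
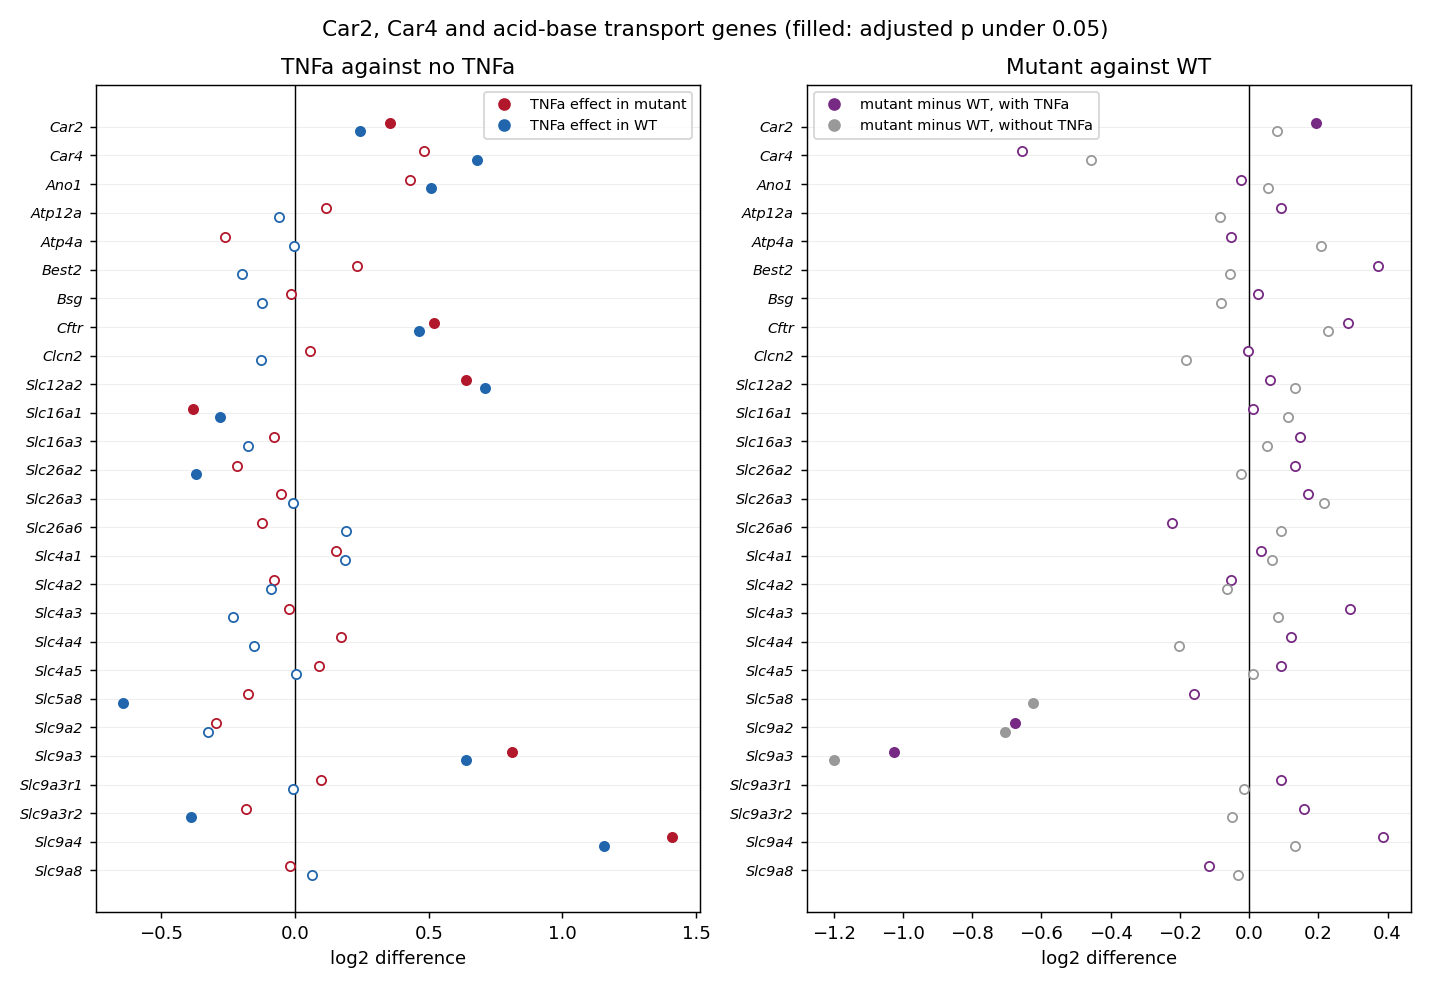
Log2 difference (x axis) of Car2, Car4 and the 25 tested acid-base transport genes (y axis), for TNFa against no TNFa on the left and mutant against WT on the right, with filled points called at an adjusted p under 0.05. Slc9a3 lies right of 0 under TNFa in both genotypes and furthest left between mutant and WT organoids.

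Since Car9 is a hypoxia target, 23 tested hypoxia targets were counted, Car9 not among them. Under TNFa 1 rose and 1 fell in mutant organoids, where 3.51% of all tested genes rose and 2.47% fell. In WT organoids 1 rose and 5 fell, where 5.03% of all tested genes rose and 5.75% fell. The WT median was -0.11, beside 0.01 over all genes, and 19 of 23 were lower. In mutant organoids the median was -0.03. Ankrd37 fell by 0.31 in mutant (adjusted p = 0.0112, limma) and 0.40 in WT organoids (adjusted p = 8.89e-04, limma). Its mutant call was kept under 27 of 28 alternatives. Pfkfb3, which drives glycolysis, rose by 0.41 in mutant (adjusted p = 0.0161, limma) and 0.47 in WT organoids (adjusted p = 0.00443, limma). Leaving out mutant with TNFa 3, mutant with TNFa 4 or mutant 2 ended the mutant call, at adjusted p up to 0.0648. In WT organoids Kdm3a, a histone demethylase, fell by 0.31 (adjusted p = 0.00508, limma). Ndrg1 fell by 0.27 there, a call lost without WT 3, WT 4, WT with TNFa 1 or WT with TNFa 3, at adjusted p up to 0.0695. Mxi1 fell by 0.37 in WT organoids. Of the fits leaving out 1 array, its call was kept only without WT 1, WT with TNFa 1 or WT with TNFa 4. Without another array its adjusted p was up to 0.131 from limma. Pgk1, a glycolytic enzyme, fell by 0.18 there. Of the fits leaving out 1 array, its call was kept only without WT with TNFa 4, mutant 2 or mutant 4. Without another array its adjusted p was up to 0.149 from limma. Without TNFa 20 of 23 were lower in mutant than in WT organoids, with a median of -0.10 beside -0.01 over all genes, and with TNFa 13 of 23 were, with a median of -0.00. With TNFa 0 differences between mutant and WT organoids were called, where 2.69% of all tested genes were. Without TNFa 0 were higher and 1 lower, where 1% of all tested genes were higher and 1.48% lower. That gene was Pdk1, a brake on pyruvate oxidation, lower by -0.42 (adjusted p = 0.0459, limma). Of the fits leaving out 1 array, its call was kept only without WT 3, WT with TNFa 2, WT with TNFa 3 or mutant 3. Without another array its adjusted p was up to 0.139 from limma. Oxygen was not a variable of the study, and its part in these values was not tested.

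**Figure D4:**
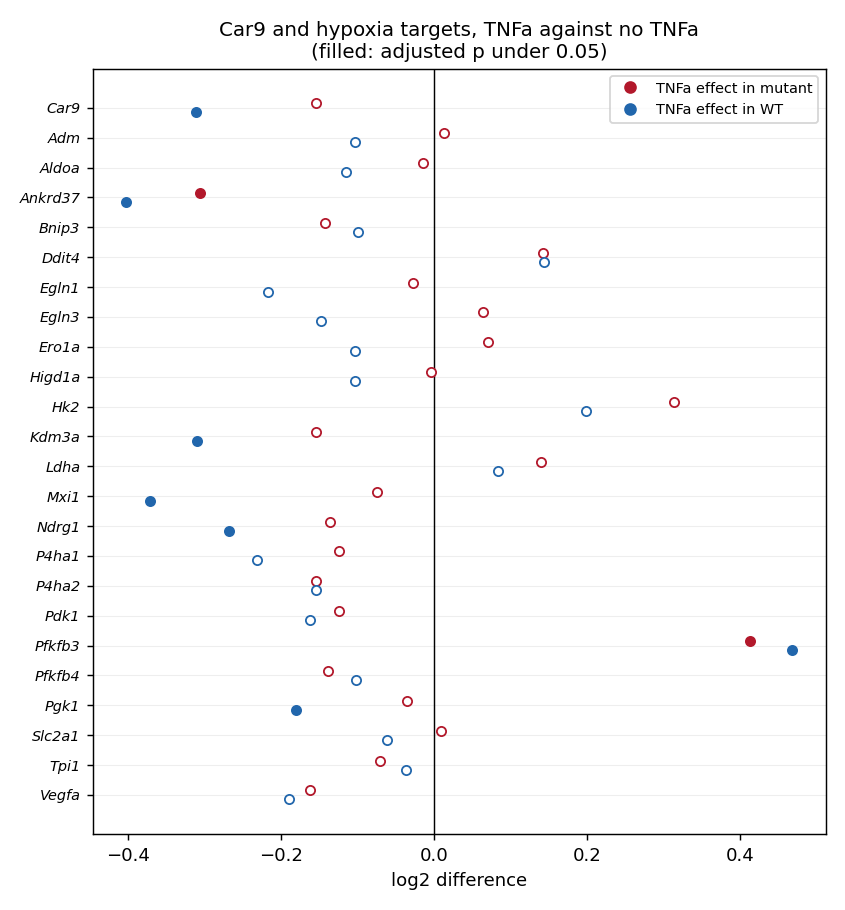
Log2 change under TNFa (x axis) of Car9 and the tested hypoxia targets (y axis) in mutant (red) and in WT organoids (blue), with filled points called at an adjusted p under 0.05. Most lie left of 0 in WT organoids, 19 of 23 without Car9.

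The genes whose signal followed each member most closely over the 16 arrays were taken by Pearson correlation among all tested genes, as a description, since the arrays share groups and normalization. The highest of so many correlations is high by selection. For Car1 the 3 nearest were Akr1c19 at 0.87, Catspere2 at 0.86 and Cobl at 0.86. Of these Catspere2 was dim, with a mean of 6.40 over the 16 arrays. For Car2 they were Tph1, the serotonin-synthesis enzyme of enterochromaffin cells, at 0.94, with Chst11 and Ang2 at 0.93 each. For Car4 they were Igsf23 at 0.89, Slc9a3 at 0.89 and Tnfrsf8 at 0.88. Car9 was followed by Gys1, the muscle-type glycogen synthase, at 0.96, and by Nhsl1 and Cyp2s1 at 0.92 each. Car8 was followed by Sugt1 at 0.83, Plrg1 at 0.82 and Spast at 0.81, and Car13 by Alg14 and Nme2 at 0.89 each and Mtpn at 0.86. After each group's mean was taken away, Gys1 was again the nearest to Car9, at 0.94, before Hnf4a at 0.91 and B3gnt3 at 0.90. Alg14 was again the nearest to Car13, at 0.92, before Tmem176b and Borcs8 at 0.90 each. By that measure Clu, a secreted chaperone, was nearest to Car8, at 0.93, before Fam160a1 at 0.86 and Cdkn2c at 0.85. Slc6a8, the creatine transporter, was nearest to Car4, at 0.91, before Prss23 and Arhgdib at 0.89 each. Abcg1 was nearest to Car1, at 0.89, before Cdkn1b at 0.83 and Wsb2 at 0.81, and Tlcd5 to Car2, at 0.88, before C2cd5 at 0.80 and Csnk2a1 at 0.79.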

How the data were processed

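Per the labels' protocols, 400 ng of RNA per sample was amplified and labelled with biotin, and 16 single-colour arrays were run. The deposited values are log2 signals from RMA in Affymetrix Expression Console, per the submitters' processing notes. Their versions, the array's design and a build are not given in the sources used here. Values ran from 2.23 to 12.9, with array medians from 7.02 to 7.11. Of 19825 probe sets, 18851 carried 1 gene symbol and 974 none.

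No further normalization was applied. Each gene took its brightest probe set, 7084 dim genes were set aside, and limma 3.58.1 (R 4.3.3) fitted 4 group means to all 16 arrays with no block. The functions were tested on simulated data. Genes named are the carbonic anhydrases, in each list and comparison the called genes of lowest p, 6 at most, the 3 nearest patterns per member and Atf2. Slc26a3, Krt20, Aqp8 and, among the markers, Cdx2, Alas2, Slc4a1, Lyz2, Col1a1 and Myh11 were named as well, after their values were seen. Members and lists were chosen with earlier results of these data known. The number of arrays limits the precision. Alternatives changed the filter, probe set choice, variance model, weights, centring, groups fitted and blocks, or left out each array. Leaving out an array outside the 2 groups of a comparison left its difference unchanged. Since each member had 1 probe set, averaging probe sets could not change its signal.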

Additional observations from a re-analysis of the deposited data

Results flagged for a closer look

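In 28 sets of 4 arrays, 1 per carbonic anhydrase and group, 3 had an array far from the others by Dixon's test, which chance alone gives in about 1 group in 20. Car1 was 12.84 in mutant 1, against 12.91 to 12.92 on the other mutant arrays. Car4 was 9.96 in mutant with TNFa 2, against 10.27 to 10.34 on the others of that group. Car13 was 8.63 in WT with TNFa 1, against 8.82 on each of the others of that group.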

How the results depend on the processing

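No called change of a gene named here reversed direction under any alternative run. For genes of the lists, arrays whose loss ended a call are named, and other alternatives ended some of these calls too. Leaving out 1 array at a time, carbonic anhydrases called numbered 1 to 2 for TNFa in mutant, 1 to 3 for TNFa in WT and 0 to 1 between genotypes with TNFa. All genes called numbered 504 to 900 for TNFa in mutant, 955 to 1430 for TNFa in WT, 192 to 340 between genotypes with TNFa, 198 to 435 without TNFa and 0 to 4 for the difference of TNFa effects. A variance trend with robust fitting called 2 members for TNFa in mutant and 5 genes for the difference. Between genotypes with TNFa, 0 members were called with no filter and with arrays centred on medians, against 1, and fitting only the groups compared called Car4 in place of Car2. Array weights called 1095 genes for TNFa in mutant, 617 between genotypes with TNFa, 443 without TNFa and 3 for the difference. Fitting only the groups compared called 720 genes for TNFa in WT and 185 between genotypes with TNFa. The 60th percentile filter called 3 genes for the difference. The cause of these shifts was not tested.

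No label says whether the same number marks a shared source. Over 16 pairs of same-numbered arrays, taken within each genotype and between genotypes, the deviations from group means correlated between -0.31 and 0.25. Of these pairs, 2 correlated best with their own number among 4 candidates. With 4 arrays in a group this cannot show whether same-numbered samples share a source. With genotype and number as a fixed replicate block, 1 member was called for TNFa in WT, against 3, since Car4 (adjusted p = 0.0701) and Car9 (0.0519) were not called by limma. With number as a block across all groups, Car4 was not called for TNFa in WT (adjusted p = 0.0505, limma) and 0 members were called between genotypes with TNFa, against 1. Each replicate block called 0 genes for the difference, against 1. Without the second array of WT with TNFa, which stood apart, Car2 rose under TNFa in WT by 0.27, Car9 fell by 0.34 and Car4 differed by 0.65 at an adjusted p of 0.0564 from limma.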

Other observations

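Surface colonocyte genes, a list that holds products of the mature absorptive cells that carry Car1 and Car4, had 20 tested members. Under TNFa 1 rose and 4 fell in mutant organoids, where 3.51% of all tested genes rose and 2.47% fell, with a list median of -0.03. In WT organoids 1 rose and 4 fell, where 5.03% of all tested genes rose and 5.75% fell, with a list median of -0.02. Slc51b, a subunit of the basolateral bile acid exporter, rose by 0.59 in mutant and 0.43 in WT organoids. Cyp2c55, a cytochrome P450, fell by 0.30 in mutant and 0.43 in WT organoids. Hsd17b2, a steroid dehydrogenase, fell by 0.27 in mutant and 0.36 in WT organoids, and its mutant call was kept under 27 of 28 alternatives. Myo1a, a brush border myosin, fell by 0.23 in mutant and 0.28 in WT organoids, and its mutant call was lost without mutant with TNFa 1, 3 or 4 or mutant 1, 2 or 4, at adjusted p up to 0.138 from limma. Mep1a, a brush border protease, fell by 0.57 in mutant and 0.85 in WT organoids, and its mutant call was lost without mutant with TNFa 1, mutant with TNFa 3 or mutant 2, at adjusted p up to 0.0761 from limma. Between mutant and WT organoids 3 were called lower and 0 higher with TNFa, where 1.13% of all genes were lower, and 14 of 20 lay lower, with a median of -0.06. Without TNFa 4 were called lower and 0 higher, where 1.48% of all genes were lower, and 16 of 20 lay lower, with a median of -0.15. Emp1, a membrane protein, was lower in mutant organoids by -0.69 with TNFa and by -0.48 without it. Tmigd1, a membrane protein of the immunoglobulin family, was lower by -0.67 with TNFa. Slc20a1, a phosphate carrier, was lower by -0.45 with TNFa and by -0.60 without it. The call with TNFa was lost without WT 4, WT with TNFa 2 or 4, or any of the 4 mutant arrays with TNFa, at adjusted p up to 0.114 from limma. Without TNFa Dhrs9, a retinol dehydrogenase, was lower by -0.53, at a dim signal, a call lost without WT 1, 2 or 4 or mutant 1, 2 or 4, at adjusted p up to 0.0854 from limma. Ceacam20 was lower by -0.42, a call lost without WT 2, 3 or 4, WT with TNFa 1, mutant 3 or 4 or any of the 4 mutant arrays with TNFa, at adjusted p up to 0.150 from limma. Krt20 and Aqp8 were not called in any comparison.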
